A study of Mus musculus with 7 samples.

Results

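The respiratory chain and ATP synthase were examined through 93 genes in hearts of mice in which floxed Akt1 and Akt2 were targeted by an inducible Cre recombinase in cardiomyocytes. The genes were chosen by name. Array probes with a curated RefSeq mRNA accession were kept when their symbol began with Nduf, Uqcr, Atp5 or Cox4 to Cox8, or was Sdha, Sdhb, Sdhc, Sdhd, Cyc1 or Cycs. Of 94 such genes, 93 passed the filter for low signal (well above background on 3 or more arrays), and each of these 93 was above background on all 7. Cox8c was the gene that did not. The 93 genes are part of 23679 genes in the fit, of which 14721 carry a symbol. They comprise 36 subunits of complex I, 4 of complex II, 9 of complex III, cytochrome c, 18 genes counted with complex IV, 17 of complex V and 8 assembly factors of complex I named Ndufaf.

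The chain sits in the inner mitochondrial membrane. Complexes I and II pass electrons from NADH and succinate to coenzyme Q, complex III passes them on to the small carrier cytochrome c, and complex IV hands them to oxygen. Complexes I, III and IV pump protons, and complex V, the ATP synthase, lets the protons flow back and makes ATP. Heart muscle is packed with mitochondria and draws most of its ATP from this route. Nuclear genes encode most subunits. A small set is encoded in mitochondrial DNA and was not analysed here, because no probe was matched to it.

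RNA came from the heart apex of male C57Bl/6 mice, with 1 single-colour Agilent array per mouse. The 3 double knockout mice (DKO) were homozygous for floxed Akt1 (exons 6 and 7) and floxed Akt2 (exons 5 and 6) and heterozygous for MHC-mercremer, a tamoxifen-dependent Cre recombinase driven by the alpha myosin heavy chain promoter of cardiomyocytes. The 4 control mice were heterozygous for MHC-mercremer with no floxed allele named in their labels. Both groups had 500 µg of 4-hydroxytamoxifen a day for 5 days and their hearts were taken 10 days after induction at 3 months of age, so both were exposed to active Cre. Other cells of the heart keep both genes and contribute RNA to every value. In such bulk tissue, fewer cells of a type and less RNA per cell cannot be told apart.

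The proteins made from Akt1 and Akt2 are kinases downstream of insulin and growth factor receptors. Akt2 gave 11.64, 11.67 and 11.61 normalized log2 units on the DKO arrays, against 13.78, 13.70, 13.61 and 13.65 on the control arrays, a 4.13-fold lower signal in DKO (limma adjusted p = 0.000165). Dimmer Akt2 probes were 1.60-fold and 4.87-fold lower in DKO (limma adjusted p over probes = 0.0335 and 0.000295), so the size of the fall varied by probe. Akt1 gave 14.68, 14.60 and 14.66 on the DKO arrays, against 14.46, 14.51, 14.40 and 14.55 on the control arrays (0.17 ± 0.07, limma adjusted p = 0.190). A second Akt1 probe gave 8.74 ± 0.24 in DKO (SD, n = 3) and 8.27 ± 0.23 in control hearts (SD, n = 4; limma adjusted p over probes = 0.139). Akt1 signal was thus not lower in DKO by either probe, so its loss was not seen in these data. The position of its probes with respect to exons 6 and 7 was not determined, and a probe outside those exons need not show their loss. Cardiomyocyte markers had 0 of 12 genes past an adjusted p of 0.05, with a summed log2 signal of 21.18 to 21.31 in DKO and 21.16 to 21.25 in control hearts. They were higher in 6 genes and lower in 6 (median 0.03). Ryr2 (-0.38 ± 0.10, limma adjusted p = 0.0759) and Actc1 (-0.24 ± 0.08) were lower at an unadjusted p below 0.05. Actn2 (0.23 ± 0.08) and Atp2a2 (0.20 ± 0.07) were higher at that threshold, which 25.5% of all genes passed. Endothelial markers were higher in 9 of 10 genes (median 0.20, summed signal 16.75 to 16.85 in DKO and 16.53 to 16.73 in control hearts). Fibroblast markers were likewise higher in 9 of 10 (median 0.17, 17.68 to 17.85 and 17.57 to 17.61), with 0 of these 20 genes past the adjusted threshold. Atrial and conduction markers moved most, with 3 of 7 genes past the adjusted threshold, all lower: Kcnj3 (-0.89 ± 0.11), Kcnj5 (-0.62 ± 0.08) and Hcn4 (-0.54 ± 0.09), with limma adjusted p from 0.0122 to 0.0294. Nppa of the same list was at 0.82 ± 0.21 (limma adjusted p = 0.0788), and the summed signal of the list was 16.98 to 17.54 in DKO and 16.10 to 16.81 in control hearts. Of 8 markers of white and brown fat, Cidea, Cfd and Lep passed the filter, with 0 calls, and Ucp1, Plin1 and Elovl3 were well above background on 0 arrays. The summed signal of the fat markers was 13.11 to 13.27 in DKO and 13.30 to 13.66 in control hearts, and Cidea was at -0.36 ± 0.11 (limma adjusted p = 0.108). Of 9 skeletal muscle markers 5 passed the filter, with 0 calls, a summed signal of 15.80 to 16.12 in DKO and 15.80 to 16.03 in control hearts, and Tnni2 at -0.39 ± 0.15 (limma adjusted p = 0.163), while Myh1, Myh2 and Actn3 were above background on 0 arrays. The part of these other cell types in the results below was not tested.

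Across the 93 genes the difference between DKO and control hearts was small. The log2 differences ran from -0.46 to 0.34 with a median of -0.02, which is also the median over all 23679 genes. Lower in DKO, with no test, were 54 of 93 (58.1%), beside 53.1% of all genes. By limma, two-sided and adjusted over all genes with Benjamini-Hochberg at 0.05, 1 of the 93 was lower and 0 higher, while 4.7% of all genes passed (2.29% lower and 2.41% higher). At an unadjusted p below 0.05, 11 (11.8%) were lower and 1 (1.08%) was higher, beside 13.9% lower and 11.6% higher over all genes (25.5% together). The share of lower genes is thus near that of the whole array, and the share of higher genes is below it. The count of 11 became 5 without DKO replicate 3, 7 without DKO replicate 2 and 7 without control replicate 4. Counts of genes whose 3 DKO values lay entirely below or above the 4 control values gave 14 lower (15.1%) and 4 higher (4.30%), beside 12.5% and 13.2% over all genes (25.7% together). The 95% interval of the difference lay within 0.5 log2 units of 0 for 80 of the 93 genes and within 0.3 for 50.

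**Figure D1:**
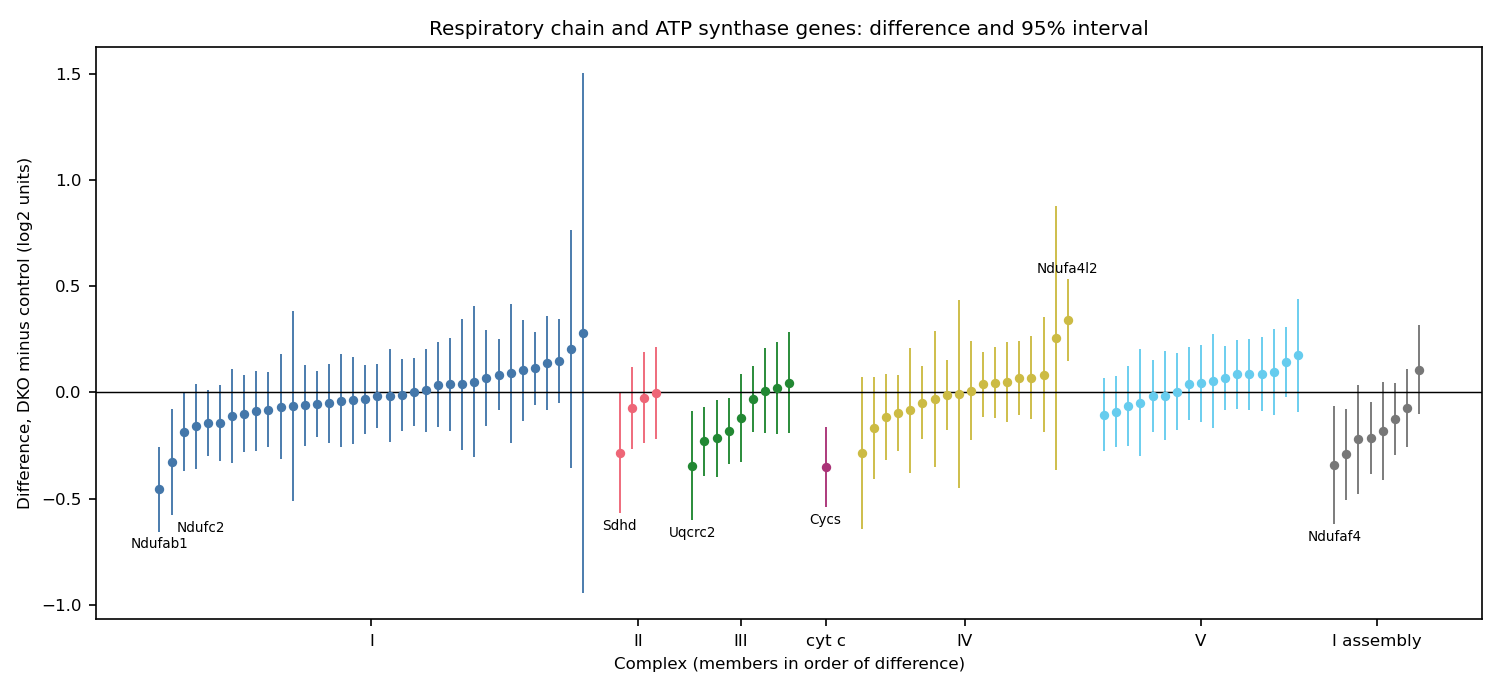
Difference between DKO and control hearts (log2 units, DKO minus control) for the 93 genes, ordered by size within each complex; bars are 95% confidence intervals of the limma fit (3 DKO and 4 control arrays). Most intervals cross 0; 11 lie below it, among them the labelled Ndufab1, Ndufc2, Sdhd, Uqcrc2, Cycs and Ndufaf4, 1 lies above it (Ndufa4l2), and Ndufa8 has the widest interval.

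In the main fit the medians of the complexes did not share a sign, and those of complexes IV and V were close to 0. The median difference was -0.03 for complex I, -0.05 for complex II, -0.12 for complex III, 0.00 for complex IV, 0.04 for complex V and -0.20 for the Ndufaf assembly factors. With slide row as a block each of these medians was negative. They were then -0.055 for complexes I and II, -0.14 for complex III, -0.013 for complex IV, -0.0047 for complex V and -0.24 for the Ndufaf factors. Medians taken on each array, relative to each gene's control mean, showed how far the arrays of a group spread. For complex III they were -0.03, -0.18 and -0.16 on the DKO arrays, against -0.00, -0.01, -0.02 and 0.01 on the control arrays. All 3 DKO values lay below the 4 control values, with DKO replicate 1 close to them. For the assembly factors they were -0.16, -0.20 and -0.22 on the DKO arrays, against -0.05, 0.10, -0.13 and 0.05 on the control arrays. These groups did not overlap either, and control replicate 3 came nearest to DKO. For complex V they were 0.10, 0.04 and -0.03 on the DKO arrays and -0.02, 0.05, -0.03 and -0.02 on the control arrays, which overlapped.

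**Figure D2:**
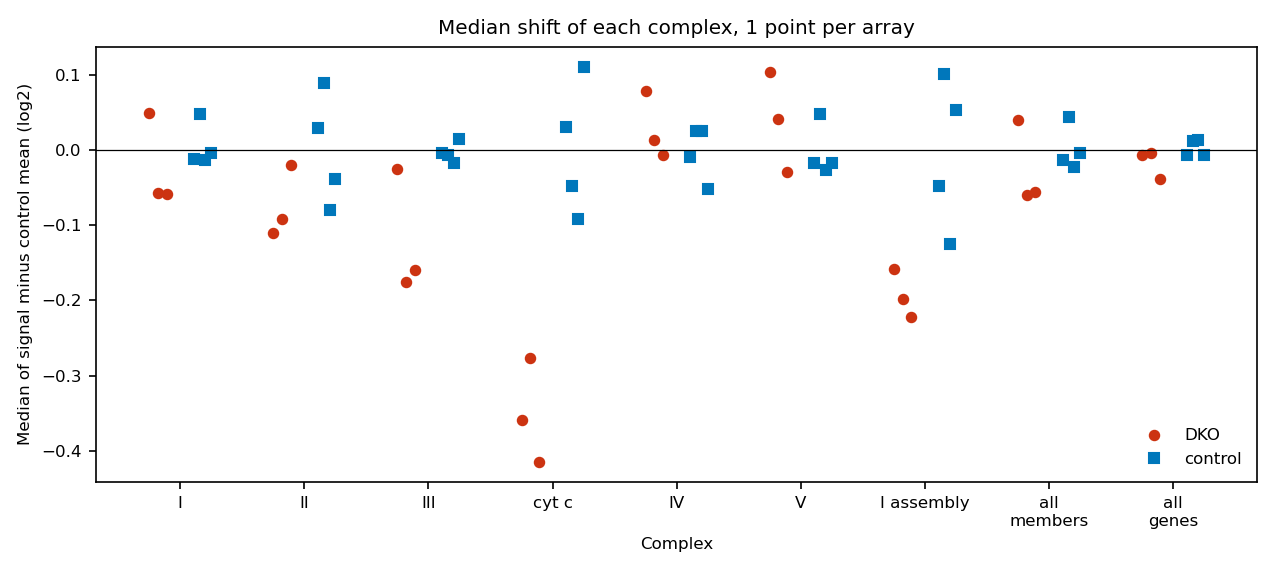
Median over the genes of each complex of the signal minus the gene's control mean (log2 units), 1 point per array, DKO in red circles and control in blue squares. DKO points lie below control points for complex III, cytochrome c and the complex I assembly factors and overlap them for complexes I, II, IV and V.

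Control replicate 1 stood apart from the other arrays. Over all 23679 genes it correlated at 0.984 to 0.987 with the other controls, which correlated at 0.992 to 0.994 among themselves. Its correlation with DKO arrays was 0.978 to 0.980, against 0.987 to 0.990 for the other controls. Among 93 genes, 13 had 1 control array far from the other 3, and in 7 of them that array was control replicate 1. Ndufa8, an accessory subunit of complex I, gave 14.50, 14.11 and 14.37 in DKO, against 12.53, 14.79, 14.45 and 14.42 in control hearts. Its difference was 0.28 with control replicate 1 and -0.23 without it, and neither passed the test. Ndufb4, of the membrane arm, gave 16.25, 16.26 and 16.23 in DKO, against 15.35, 16.29, 16.24 and 16.27 in control hearts, a difference of 0.20 that became -0.03 without that array. Cox7a2l, which helps join complexes III and IV into supercomplexes, gave 15.84, 15.55 and 15.90 in DKO, against 14.76, 15.80, 15.77 and 15.69 in control hearts, and 0.26 became 0.01. The unadjusted counts without control replicate 1 were 12 lower and 1 higher, with 0 genes past the adjusted threshold.

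**Figure D3:**
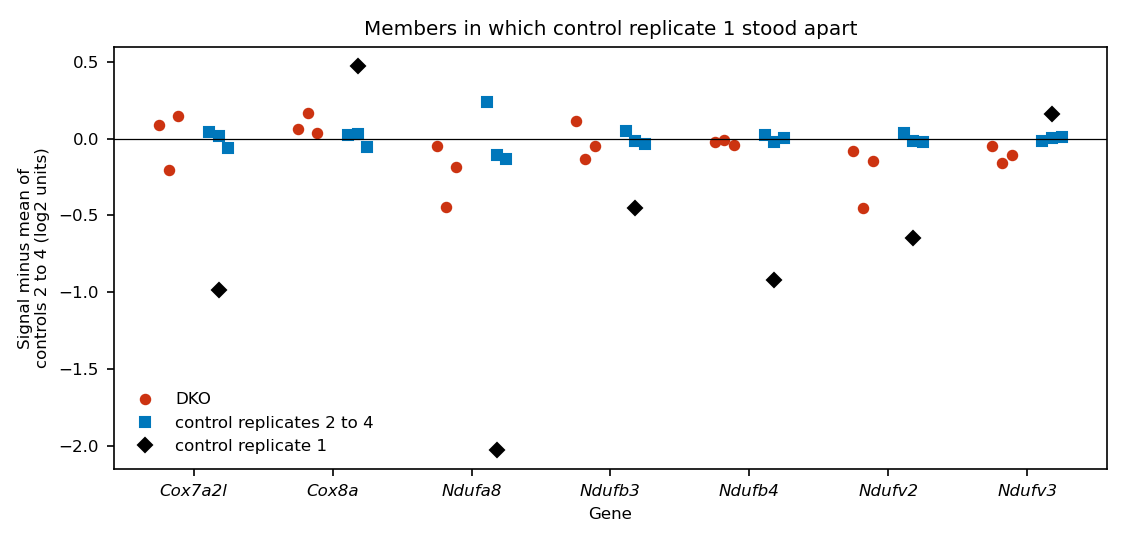
Signal minus the mean of control replicates 2 to 4 (log2 units) for the 7 genes in which control replicate 1 (black diamonds) lay far from the other controls (blue squares), with DKO arrays in red circles. The black point is lower than the other controls in Cox7a2l, Ndufa8, Ndufb3, Ndufb4 and Ndufv2 and higher in Cox8a and Ndufv3; the DKO points lie mostly near the other controls.

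Complex I takes electrons from NADH. Of its 36 subunits, 21 were lower and 15 higher in DKO, with 2 lower and 0 higher at an unadjusted p below 0.05 (5.56%, against 13.9% lower over all genes). Ndufab1, the mitochondrial acyl carrier protein that is both a subunit and a carrier in fatty acid synthesis, was the gene that passed the adjusted threshold. It gave 8.81, 8.80 and 8.60 log2 units in DKO hearts, against 9.21, 9.11, 9.19 and 9.27 in control hearts. Every DKO value lay below every control value. Ndufab1 fell 1.37-fold in DKO (-0.46 ± 0.08 log2, limma adjusted p = 0.0338), measured by 1 probe. Its signal was the lowest of complex I, whose control means ran from 9.19 (Ndufab1) to 17.81 log2 units. The call was lost when any 1 of 6 arrays was left out and kept without control replicate 2 (adjusted p from 0.0457 to 0.0981, limma). It was also lost with slide row as a block (limma adjusted p = 0.0839), and 9 of 20 alternatives in all kept it.

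Ndufc2, a small subunit of the membrane arm, gave 15.47, 15.60 and 15.28 in DKO hearts, against 15.89, 15.86, 15.71 and 15.65 in control hearts (-0.33 ± 0.11, limma adjusted p = 0.121). The groups did not overlap. Ndufa10 (-0.18 ± 0.08), the core iron-sulphur subunit Ndufs8 (-0.15 ± 0.07) and the accessory subunit Ndufv3 (-0.14 ± 0.08) were also separated by group, with adjusted p from 0.198 to 0.280 (limma). With Ndufab1, 5 of the 36 subunits (13.9%) lay wholly below the controls, beside 12.5% of all genes. By the brightest probe of each gene, Ndufb11, an X-linked accessory subunit, was the 1 gene of complex I whose DKO values all lay above the controls (0.11 ± 0.07). That is 2.78% of the subunits, beside 13.2% of all genes. The 7 core subunits hold the flavin and the iron-sulphur clusters. By their brightest probes 4 were lower and 3 higher, with 0 past an unadjusted p of 0.05. Among them Ndufs1 was at -0.07 ± 0.10 and Ndufv1, which binds NADH, at 0.15 ± 0.08. A dimmer Ndufv1 probe was at 0.25 ± 0.07 and separated by group (limma unadjusted p = 0.0117, adjusted over probes 0.103). The NADH-binding and core subunits thus spread on both sides of 0.

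Complex II links the citric acid cycle to the chain and is fully encoded in the nucleus. By the brightest probe of each gene, all 4 of its subunits had negative differences, beside 53.1% of all genes. At an unadjusted p below 0.05, 1 of them was lower, beside 13.9% of all genes. Dimmer probes of Sdha and Sdhb were at 0.07 ± 0.08 and 0.01 ± 0.09. Sdhd, a membrane anchor at the coenzyme Q site, gave 15.67, 15.38 and 15.51 in DKO hearts, against 15.68, 16.03, 15.67 and 15.87 in control hearts (-0.29 ± 0.12, limma adjusted p = 0.192). The first DKO array lay among the controls, so the groups overlapped. Sdha, the flavoprotein that oxidises succinate, was at -0.07 ± 0.08, the iron-sulphur subunit Sdhb at -0.02 ± 0.09 and the second anchor Sdhc at -0.00 ± 0.09. The DKO and control values of these 3 genes were interleaved.

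Of the 9 subunits of complex III, 4 (44.4%) had an unadjusted p below 0.05 and were separated by group, all lower in DKO, against 13.9% and 12.5% of all genes. These were the redox and core subunits Cyc1, Uqcrfs1, Uqcrc1 and Uqcrc2. None of the 9 passed the adjusted threshold (limma), so these are values and not calls. Cyc1, the haem subunit that hands electrons to cytochrome c, gave 16.82, 16.77 and 16.68 in DKO hearts, against 17.03, 16.98, 16.94 and 17.00 in control hearts (-0.23 ± 0.07, limma adjusted p = 0.105). Uqcrfs1, the Rieske iron-sulphur protein, gave 15.85, 15.86 and 15.75 in DKO hearts, against 15.96, 16.09, 15.96 and 16.12 in control hearts (-0.21 ± 0.08, limma adjusted p = 0.145). Both carry the redox centres that come from nuclear genes, the remaining redox subunit being cytochrome b of mitochondrial DNA.

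The core proteins form the matrix face of complex III. Uqcrc2 gave 16.70, 16.37 and 16.56 in DKO hearts, against 17.07, 16.84, 16.79 and 16.86 in control hearts (-0.34 ± 0.11, limma adjusted p = 0.116). Uqcrc1 gave 16.71, 16.61 and 16.62 in DKO hearts, against 16.82, 16.82, 16.81 and 16.85 in control hearts (-0.18 ± 0.07, limma adjusted p = 0.150). The controls of Uqcrc1 lay within a narrow band above all DKO hearts. The small subunits were at -0.12 ± 0.09 (Uqcrb), -0.03 ± 0.07 (Uqcr11), 0.01 ± 0.08 (Uqcr10), 0.02 ± 0.09 (Uqcrq) and 0.05 ± 0.10 (Uqcrh), with overlapping groups in each. Their median was 0.01, beside -0.22 for the 4 core and redox subunits. The split into these subgroups was made with the values known and was not tested. With quantile normalization, the median of the 9 subunits stayed negative, as it did under each of the other alternatives tried (from -0.17 to -0.08).

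Cytochrome c (Cycs), the mobile carrier between complexes III and IV and a trigger of apoptosis once released to the cytosol, gave 16.37, 16.45 and 16.31 in DKO hearts, against 16.75, 16.68, 16.63 and 16.83 in control hearts. No DKO value reached the lowest control value. The difference was -0.35 ± 0.08 (limma adjusted p = 0.0577), just outside the threshold. A second Cycs probe gave 15.00 ± 0.11 in DKO (SD, n = 3) and 15.37 ± 0.12 in control hearts (SD, n = 4), a difference of -0.38 (limma adjusted p over probes = 0.0757). Cycs passed the threshold when probes had to be above background on all 7 arrays (adjusted p = 0.0443), with a trended variance (0.0165) and with array weights (0.0442), all by limma.

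**Figure D4:**
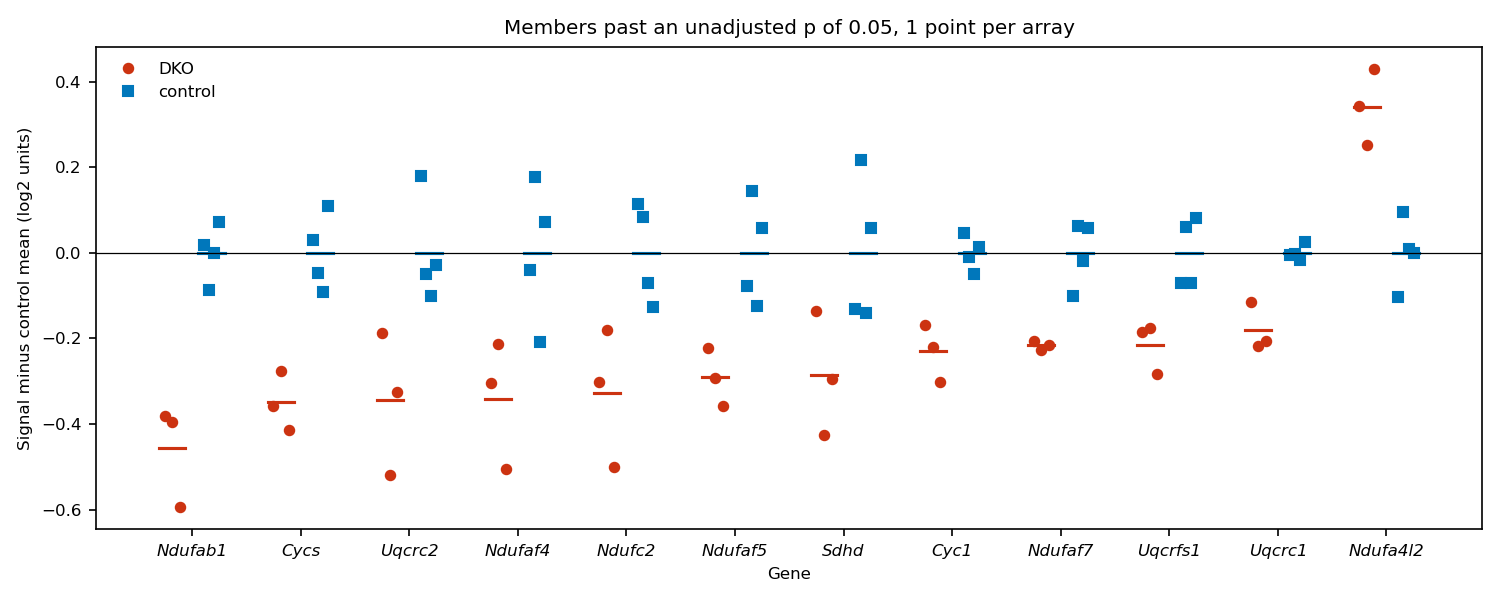
Signal minus the gene's control mean (log2 units) on each array for the 12 genes with an unadjusted p below 0.05, DKO in red circles left of control in blue squares; horizontal bars are group means. The groups do not overlap in 11 of the 12 genes, Sdhd being the exception, and Ndufa4l2 is the gene higher in DKO.

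Complex IV reduces oxygen and contains several subunits with a heart and muscle form and a form used elsewhere. Of 18 genes, 9 were lower and 9 higher in DKO. At an unadjusted p below 0.05, 0 were lower and 1 gene was higher (5.56%), beside 13.9% lower and 11.6% higher over all genes. That gene was Ndufa4l2, a paralog of the complex IV subunit Ndufa4 that is induced by hypoxia and is known in heart as a pericyte gene. It gave 12.22, 12.13 and 12.31 in DKO hearts, against 11.77, 11.97, 11.89 and 11.88 in control hearts (0.34 ± 0.08, limma adjusted p = 0.0632). All DKO values lay above the control values. The pericyte markers Rgs5 (0.36 ± 0.09, limma adjusted p = 0.0667) and Kcnj8 (0.21 ± 0.07, limma adjusted p = 0.117) had differences of the same sign. The pericyte marker Cspg4 did not (-0.00 ± 0.10, limma adjusted p = 0.983), and the smooth muscle marker Acta2 was lower (-0.41 ± 0.14, limma adjusted p = 0.128). Of the 8 smooth muscle and pericyte markers 6 were higher (median 0.29), of which Myh11 passed the threshold (0.63 ± 0.14, limma adjusted p = 0.0487). Their summed signal was 15.98 to 16.19 in DKO and 16.02 to 16.27 in control hearts, and overlapped. Acta2 was the brightest of the 8 (control mean 15.49, the next Kcnj8 at 12.98) and weighs most in that sum. The median of the 8 markers on each array, relative to each gene's control mean, did not overlap. It was 0.21 to 0.26 in DKO and -0.05 to 0.08 in control hearts. The part of these markers in the Ndufa4l2 value was not tested.

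The catalytic core of complex IV is encoded in mitochondrial DNA, so the nuclear genes measured here build its outer subunits. Cox4i1, the common form of subunit 4, was at 0.01 ± 0.10 and Cox5a at 0.08 ± 0.11. Cox7b2 (-0.29 ± 0.15) and Cox6b2 (-0.17 ± 0.10), forms best known from testis, and Cox6a1 (-0.12 ± 0.09), the form outside muscle, had the smallest p-values after Ndufa4l2, from 0.101 to 0.214 unadjusted, with overlapping groups.

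Isoform pairs were compared within each array, as the log2 signal of one form minus that of the other. Of 8 pairs, 1 was separated by group. Ndufa4 minus Ndufa4l2, relative to its mean over the controls, was -0.36, -0.46 and -0.50 in DKO hearts and 0.14, -0.11, 0.01 and -0.05 in control hearts, a shift of -0.44 towards Ndufa4l2 (exact permutation test, two-sided, p = 0.0571, adjusted over the pairs 0.457). With 3 against 4 arrays 0.0571 is the smallest p the test can give, so no pair could pass. Muscle Cox6a2 over Cox6a1 shifted by 0.16 (exact p = 0.114). The shifts were -0.04 for Cox7a1 over Cox7a2, 0.10 for Cox8b over Cox8a, -0.06 for Cox4i1 over Cox4i2 and 0.16 for Cox6b1 over Cox6b2, with exact permutation p from 0.514 to 0.971. The muscle forms themselves were at 0.05 ± 0.08 (Cox6a2), -0.05 ± 0.07 (Cox7a1) and 0.07 ± 0.07 (Cox8b). Between forms of the ring subunit c of ATP synthase, Atp5g1 shifted by -0.09 against Atp5g2 and by 0.07 against Atp5g3 (exact p = 0.457 for each).

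By the brightest probe of each gene, complex V had 11 of 17 subunits higher and 6 lower. None passed an unadjusted p of 0.05 in either direction, beside 25.5% of all genes. Atp5g2, which encodes the proton-carrying ring subunit, gave 16.78, 16.73 and 16.88 in DKO hearts, against 16.69, 16.62, 16.63 and 16.68 in control hearts (0.14 ± 0.07, limma adjusted p = 0.253). Its groups did not overlap, nor did those of Atp5e (0.08 ± 0.07), a subunit of the central stalk. These 2 of 17 genes (11.8%) lay wholly above the controls, beside 13.2% of all genes. The catalytic subunits were at 0.18 ± 0.11 (Atp5b) and 0.09 ± 0.07 (Atp5a1). Dimmer Atp5b probes were at 0.14 ± 0.09 and 0.30 ± 0.09. The dimmest was separated by group (limma unadjusted p = 0.0129, adjusted over probes 0.108). The largest negative differences were those of the membrane subunits Atp5md (-0.10 ± 0.07) and Atp5mpl (-0.09 ± 0.07). Atp5mpl lies 8 tested genes from Akt1 on chromosome 12 and was the 1 gene of the set within 50 tested genes of a floxed gene. Atpif1, the inhibitor that stops ATP synthase from running backwards and not one of the 93, was at 0.12 ± 0.10 (limma adjusted p = 0.487). All 17 intervals of complex V lay within 0.5 log2 units of 0.

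Assembly factors of complex I help build the enzyme and leave it when it is complete. Of the 8 Ndufaf genes, 7 were lower in DKO, 3 of them at an unadjusted p below 0.05 (37.5%, against 13.9% over all genes), and 4 were separated by group, against 12.5% of all genes. Ndufaf4, an early assembly factor, gave 11.65, 11.74 and 11.45 in DKO hearts, against 11.92, 12.14, 11.75 and 12.03 in control hearts (-0.34 ± 0.12, limma adjusted p = 0.137). Its highest DKO value lay just under its lowest control value. Ndufaf5, which hydroxylates the core subunit Ndufs7, gave 10.97, 10.90 and 10.84 in DKO hearts, against 11.12, 11.34, 11.07 and 11.25 in control hearts (-0.29 ± 0.09, limma adjusted p = 0.110). Ndufaf7, a methyltransferase, gave 11.80, 11.77 and 11.79 in DKO hearts, against 11.90, 12.06, 11.98 and 12.06 in control hearts (-0.22 ± 0.07, limma adjusted p = 0.126). The DKO hearts were nearly equal to each other in Ndufaf7.

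The remaining factors were Ndufaf1 (-0.22 ± 0.11), Ndufaf6 (-0.18 ± 0.10, separated by group), Ndufaf2 (-0.13 ± 0.07), Ndufaf3 (-0.07 ± 0.08) and Ndufaf8 (0.11 ± 0.09). Factors of complex I outside the Ndufaf names had 5 of 8 lower, a median of -0.08 and 0 at an unadjusted p below 0.05.

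The slide carries its arrays in rows, and 1 row held DKO replicate 3 with control replicates 1, 3 and 4, the other DKO replicates 1 and 2 with control replicate 2. Within the rows Ndufab1 was at -0.62 and -0.30, Cycs at -0.43 and -0.27, Uqcrc2 at -0.34 and -0.30 and Ndufa4l2 at 0.46 and 0.20. The medians of complex III were -0.15 and -0.13 and those of the Ndufaf factors -0.18 and -0.29. All 12 genes past an unadjusted p of 0.05 kept their sign within both rows. Groups that do not overlap must do so, which fixed the outcome for all of these genes but Sdhd. Each row had 1 array on 1 side and so allowed no test.

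Other genes of mitochondrial respiration were counted in lists, beside 53.1% lower, 13.9% lower and 11.6% higher at an unadjusted p below 0.05, and 4.7% past the adjusted threshold over all genes. Assembly factors of complex III had 4 of 5 measured genes lower and 1 past the adjusted threshold: Bcs1l, which inserts the Rieske protein into complex III, fell in DKO (-0.40 ± 0.08, limma adjusted p = 0.0460). Uqcc1, which helps cytochrome b into the same complex and was named after its value was seen, was at -0.38 ± 0.09 (limma adjusted p = 0.0587). All 4 complex II factors (median -0.20) and all 5 complex V factors (median -0.16) had negative differences with 0 calls. Complex IV factors had 15 of 23 lower with 0 calls and a median of -0.09.

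Coenzyme Q synthesis had 4 of 13 genes lower and 4 higher at an unadjusted p below 0.05 (30.8% each), and 2 past the adjusted threshold, in opposite directions. The methyltransferase Coq5 fell (-0.42 ± 0.08, limma adjusted p = 0.0368). The kinase-like protein Coq8b rose (0.41 ± 0.08, limma adjusted p = 0.0417), and its gene lies 12 tested genes from Akt2 on chromosome 7. Mitochondrial ribosomal proteins, which translate the subunits encoded in mitochondrial DNA, were lower in 60 of 78 genes, with 21 lower (26.9%, against 13.9% of all genes) and 3 higher (3.85%, against 11.6%) at an unadjusted p below 0.05. Their median was -0.11, and 2 passed the adjusted threshold. Mrpl19 of the large ribosomal subunit fell (-0.57 ± 0.09, limma adjusted p = 0.0246), and Mrps12 of the small subunit fell to 12.58 ± 0.11 in DKO hearts (SD, n = 3), against 13.59 ± 0.05 in control hearts (SD, n = 4; limma adjusted p = 0.00454), but Mrps12 lies 32 tested genes from Akt2. Whether the floxed region bears on Mrps12 and Coq8b was not tested.

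Protein import had 11 of 19 genes lower, of which Timm22, the inner membrane channel for carrier proteins, fell (-0.53 ± 0.08, limma adjusted p = 0.0207). Genes of mitochondrial DNA upkeep had 5 of 11 lower, and Polg, the mitochondrial DNA polymerase, rose (0.50 ± 0.11, limma adjusted p = 0.0499). Nuclear regulators had 0 of 12 past the adjusted threshold and a median of 0.05. The coactivators Ppargc1a (-0.21 ± 0.07) and Ppargc1b (-0.49 ± 0.18) were the 2 lower at an unadjusted p below 0.05, and Gabpb1 (0.18 ± 0.07) the 1 higher (limma adjusted p from 0.146 to 0.178). These 3 were named after their values were seen. The citric acid cycle had 10 of 14 lower with 0 calls, genes of cristae and cardiolipin 10 of 14 with 0, inner membrane carriers 6 of 8 with 0 and electron entry from other dehydrogenases 6 of 7 with 0.

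**Figure D5:**
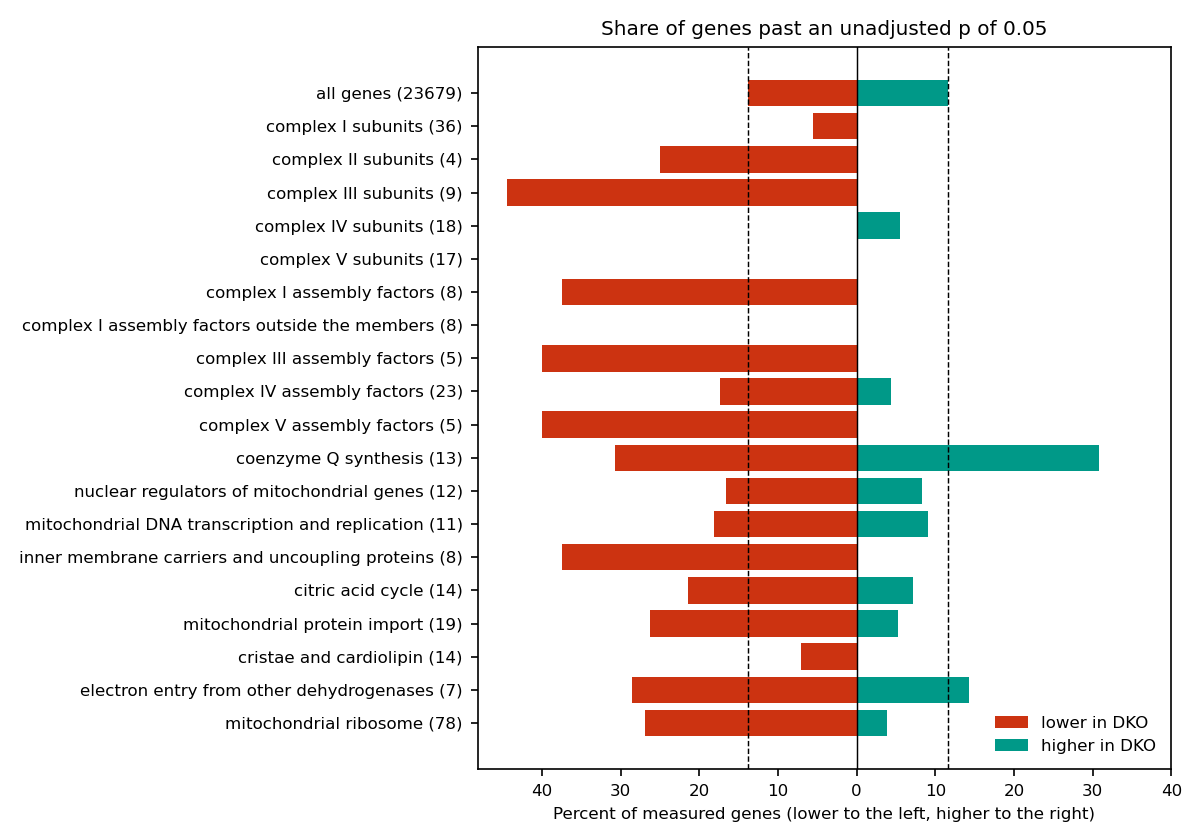
Percent of measured genes with an unadjusted p below 0.05 that were lower (red, left) or higher (green, right) in DKO hearts, for each complex and each list with at least 5 measured genes and for complex II; counts of measured genes stand in brackets and dashed lines mark the shares over all 23679 genes. Complexes I, IV and V, the complex I assembly factors outside the Ndufaf names, and cristae and cardiolipin lie under the lower-side line. Every other complex and list shown lies beyond it, many with few genes. Coenzyme Q synthesis and electron entry from other dehydrogenases lie beyond both lines.

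Nuclear genes of the chain are known to share promoter elements bound by NRF1, the ETS factor GABPA, ERR proteins and YY1. RefSeq promoter windows of GRCm38.p6, 250 bases before to 50 after the start, were at hand for 76 of the 93 genes and were searched on both strands. The full palindromic NRF1 site, in capitals in the 7 lines below, stood in 7 of 76 windows (9.21%), against 0.977% of 27025 windows of all genes. The GABPA core CCGGAAG stood in 23.7% against 9.12%, the YY1 site AAGATGGC in 13.2% against 2.88%, the ERR core AAGGTCA in 10.5% against 4.66% and CCAAT, the NFY box, in 46.1% against 37.9%. The windows of all genes were not limited to genes that passed the signal filter, as the 76 did, so the shares do not compare like genes. The windows with the NRF1 site are shown because they hold the element best known from genes of the chain, with the site in capitals, 5′ to 3′ along the gene's own strand.
Ndufaf4 (chr4:24897960-24897989, plus strand, -0.34): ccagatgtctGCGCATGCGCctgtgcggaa
Ndufaf5 (chr2:140170652-140170681, plus strand, -0.29): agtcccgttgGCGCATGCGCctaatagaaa
Uqcrc1 (chr9:108936668-108936697, plus strand, -0.18): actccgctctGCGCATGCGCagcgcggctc
Cox6a1 (chr5:115349101-115349130, minus strand, -0.12): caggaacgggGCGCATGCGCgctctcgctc
Ndufa11 (chr17:56717692-56717721, plus strand, -0.09): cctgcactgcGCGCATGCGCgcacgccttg
Atp5k (chr5:108434430-108434459, minus strand, -0.05): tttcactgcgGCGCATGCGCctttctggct
Atp5g2 (chr15:102671070-102671099, minus strand, 0.14): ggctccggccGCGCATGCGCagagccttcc
The number after each strand is the log2 difference, DKO minus control.

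Of these 7 genes 6 had negative differences and 1, Atp5g2, a positive one, beside 54 of all 93 (58.1%) negative. None of the 7 passed the adjusted threshold (limma). The Cycs window holds the inner bases of the site, GCATGCGC, 60 bases before the start, and a CCAAT box 31 bases before it. It is shown because Cycs had the largest difference after Ndufab1, with both elements in capitals.
Cycs (chr6:50566570-50566709, minus strand): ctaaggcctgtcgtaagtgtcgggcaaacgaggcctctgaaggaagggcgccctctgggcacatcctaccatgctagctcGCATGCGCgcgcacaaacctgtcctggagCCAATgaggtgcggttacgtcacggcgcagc
The shorter site GCATGCGC, which lies within the longer one and was searched after the Cycs window had been read, stood in 13 of 76 windows (17.1%) against 2.80% of all windows. A match is a stretch of letters and no measure of binding.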

How the data were processed

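Total RNA (100 ng per heart) was labelled with Cy3 and hybridised to Agilent arrays of design 074809, per the labels' protocols and the file headers. Each deposited array file gives background-subtracted processed signals as an intensity on a linear scale, from Feature Extraction 12.0.3.1 with probe positions on mm9, per the file headers. A value table that the authors deposited contains log2 values, which matched quantile-normalized, probe-median-centred scanner values (r from 0.99995 to 0.99998). All 7 arrays shared 1 slide and 1 scan. From 50.9% to 55.7% of an array's probes were well above background and 0 spots were saturated, and precision is limited by how many arrays there were.

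Control and outlier spots were left out. The log2 processed signal minus each array's 75th percentile was taken, with the mean percentile (9.14) added back as a constant. Probes were named by accession through the RefSeq table of GRCm38.p6, which gave a symbol to 32994 of 56605 probes. Probes well above background on at least 3 arrays were kept and the brightest probe represented a gene. Of the 93 genes, 20 had several probes, which differed in sign in 7 and by at most 0.23 log2. The 2 groups were fitted by lmFit and eBayes of limma 3.58.1 (R 4.3.3), with 5 residual and 2.11 prior degrees of freedom. P-values were adjusted over all 23679 genes by Benjamini-Hochberg and called at 0.05. Values after ± without SD are standard errors. Each array is a separate mouse, per the labels. The fit was tested on simulated data.

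Ndufa4 and Ndufa4l2 were counted with complex IV. Genes named are those past the adjusted threshold, up to 4 with the smallest p per complex, isoform pairs, the main catalytic subunits and carriers, genes with an outlying array, called genes of lists and genes near Akt1 or Akt2. The genes and lists were chosen with earlier results of these data known, so no test was made over them. Alternatives covered normalization, background correction (normexp, offset 50, on the median signal because no mean signal column is present), the filter, the deposited log2 table, averaging a gene's probes, variance models, weights per array, blocks by slide row or by replicate number, dropping each array, leaving out neighbours of Akt1 and Akt2, and, added after seeing the data, counting Ndufa4 and Ndufa4l2 with complex I.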

Additional observations from a re-analysis of the deposited data

Results flagged for a closer look

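In 13 of the 93 genes and in 2 complex medians, 1 control array lay far from the other 3, by the gap to its neighbour over the range of the group. Groups of 4 are flagged by chance in about 1 of 20 cases, and 100 control groups were examined. No explanation was tested. In the first 7 the array was control replicate 1. It read 12.53 log2 units for Ndufa8, 14.76 for Cox7a2l, 14.99 for Ndufb3, 15.35 for Ndufb4 and 15.55 for Ndufv2, below the other controls. It read 16.54 for Cox8a and 17.37 for Ndufv3, above them. Without that array the difference between DKO and control hearts was -0.23 for Ndufa8, 0.01 for Cox7a2l, -0.02 for Ndufb3, -0.03 for Ndufb4, -0.23 for Ndufv2, 0.09 for Cox8a and -0.10 for Ndufv3.

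Control replicate 2 lay above the other controls in 4 genes, at 18.18 for Atp5g1, 18.09 for Cox5a, 17.16 for Ndufb8 and 16.79 for Ndufc1. On the same array the median shift from the control mean was 0.0482 for complex I and 0.0473 for complex V, above the other 3 controls. Without it the differences were 0.12 for Atp5g1, 0.15 for Cox5a, -0.00 for Ndufb8 and -0.05 for Ndufc1. Control replicate 4 lay below the other controls at 17.87 for Atp5a1 and 17.12 for Ndufb10, with differences of 0.05 and -0.07 without it.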

How the results depend on the processing

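The count of genes past the adjusted threshold was 1114 and that of the 93 genes was 1. These became 549 and 0 with normexp, 709 of all genes with normexp and quantile normalization, 121 and 0 with no filter, 2008 and 4 with a trended variance, 1680 and 3 with array weights and 288 and 0 with slide row as a block. With a filter on all 7 arrays 3 of the 93 passed. With 1 array left out the counts ran from 161 to 1127 genes and from 0 to 1 of the 93, the lowest without DKO replicate 1. With the replicate block, 1 gene passed and 0 of the 93. Same-numbered arrays correlated at 0.129, 0.00690 and 0.0325 in their deviations, so the numbers were not shown to pair the mice. The median of complex V became -0.0108 when a gene's probes were averaged, and that of complex IV 0.0516 without control replicate 2 (from -0.0123 to 0.0516 with 1 array left out). The other 140 of 142 complex medians moved by less than the spread between arrays. Ndufab1 was called in 9 of 20 alternatives (limma adjusted p from 0.0168 to 0.174) and Cycs in 3 (0.0165 to 0.225). Sdhd was called with normexp and quantile normalization (0.0464) and Cyc1 with a trended variance (0.0387). The 12 genes past an unadjusted p of 0.05 kept their sign in all 240 values, while 17 of the other 37 named genes changed sign in 67 of 740. The 12 were picked by p on these same arrays, and their groups, except those of Sdhd, do not overlap. For these, leaving out an array or changing the variance model could not turn the sign. The contrast with the other 37 is thus no measure of stability. The count of lower genes at that p fell to 5 with the replicate block, 5 without DKO replicate 3, 7 without DKO replicate 2 and 7 without control replicate 4. The causes were not tested. The median of all genes lay between -0.03 and 0.01.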

Other observations

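Electron entry and fuel genes next to the chain had differences that did not pass the adjusted threshold, and they are named here after their values were seen. Citrate synthase (Cs), the entry enzyme of the citric acid cycle and a common gauge of mitochondrial content, averaged 17.18 ± 0.01 log2 units in DKO hearts (SD, n = 3) and 17.36 ± 0.01 in control hearts (SD, n = 4), a difference of -0.18 ± 0.06 (limma adjusted p = 0.126) with no overlap between groups. Etfdh, which passes electrons from fatty acid oxidation to coenzyme Q, averaged 14.69 ± 0.01 in DKO hearts and 15.05 ± 0.17 in control hearts, a difference of -0.35 ± 0.10 (limma adjusted p = 0.0988), also with no overlap. Ucp2, a carrier of the inner membrane, averaged 9.63 ± 1.05 in DKO hearts and 10.93 ± 0.30 in control hearts, a difference of -1.30 ± 0.45 (limma adjusted p = 0.138). Its relative Ucp3 averaged 10.05 ± 0.89 in DKO hearts and 11.01 ± 0.33 in control hearts, a difference of -0.95 ± 0.40 (limma adjusted p = 0.192). For both carriers the groups overlapped and the DKO hearts spread widely. In the other direction, Ogdh, a subunit of the oxoglutarate dehydrogenase complex, averaged 17.10 ± 0.08 in DKO hearts and 16.91 ± 0.01 in control hearts (0.19 ± 0.07, limma adjusted p = 0.148). Sqor, which feeds electrons from sulphide to coenzyme Q, averaged 12.93 ± 0.08 in DKO hearts and 12.73 ± 0.09 in control hearts (0.20 ± 0.08, limma adjusted p = 0.194). Neither gene overlapped between groups.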
